A study of Homo sapiens with 9 samples.

Results

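The 37 genes described here make up the redox defence of the cell around the transcription factor NRF2, together with antioxidant enzymes and subunits of NADPH oxidase. They were taken by gene symbol from the 29740 genes of the count table, and all 37 were present in it. RNA had been sequenced from HMEC-1, an established line of human dermal microvascular endothelial cells, in 9 libraries. The 3 control libraries (CTRL) came from untreated cells, 3 libraries from cells given 50 µM trimethylamine-N-oxide (TMAO) for 24H and 3 from cells given the same dose for 48H. Treated cells were kept in serum-starved medium, and the medium of the controls is not stated. TMAO is a metabolite that the liver makes from trimethylamine released by gut microbes. The untreated cells of both time-points form a single control group in the study, so a change with TMAO at 24H or 48H cannot be told apart from a change with time in culture. The same holds for differences between 48H and 24H of TMAO, which have no untreated counterpart. All libraries come from 1 cell line, and nothing in the labels says that they came from separate cultures, so the p-values measure only the spread between these libraries. The study measured reactive oxygen species in these cells at both time-points, and the comparisons below ask whether the transcripts of the redox genes differed between the groups.

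Total counts ran from 25205756 to 36927373 per library. One library, TMAO 24H replicate 1, stood apart, where 30.73% of the counts fell in ribosomal RNA genes. The range over the remaining 8 was 0.9681% to 6.732%. All 15 endothelial marker genes had enough counts to test. Their summed normalised counts (counts scaled to the same effective library size) were 84883 to 93908 in CTRL, 84710 to 89142 at 24H and 74567 to 80067 at 48H. At 48H 1 of the 15 was higher and 8 were lower than in CTRL at an adjusted p under 0.05 by edgeR, the rule used for all markers here. Over all 14740 tested genes 5.14% were higher and 5.29% lower by that rule. Markers of fibroblasts and mural cells summed to 29507 to 34271 in CTRL, 29777 to 32106 at 24H and 19099 to 20873 at 48H, with 2 collagen genes lower and 1 muscle actin gene higher among the 9 of 12 that could be tested at 48H, and 3 at or near 0. Of 8 epithelial markers 1 was lower at 48H (sums of 23653 to 25861 in CTRL, 22477 to 23936 at 24H and 19360 to 22099 at 48H). Of 10 leukocyte markers only 2 were expressed enough to test and neither changed at 48H (sums of 592.84 to 678.97, 657.1 to 699.06 and 676.3 to 716.87). The markers were read in 1 cell line, so their sums are not read as amounts of other cell types. The part that these marker shifts may have in the results at 48H was not tested. In bulk RNA fewer cells with a transcript and less of it per cell cannot be told apart.

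NRF2, encoded by NFE2L2, is the main switch of the antioxidant response. In unstressed cells KEAP1 holds it and passes it to an ubiquitin ligase for breakdown, and oxidants or electrophiles modify KEAP1 so that NRF2 escapes, enters the nucleus, pairs with a small MAF protein and binds antioxidant response elements, where the repressor BACH1 competes with it. Its targets supply glutathione, thioredoxin and NADPH, break down heme, store iron and reduce quinones. Because NRF2 is governed largely by the stability of its protein, its activity is usually read from the transcripts of its targets rather than from its own. In endothelial cells the NADPH oxidase NOX4 is a constitutive source of hydrogen peroxide.

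At 24H none of the 36 members with enough counts to test differed from CTRL at an adjusted p under 0.05 by edgeR's quasi-likelihood test, against 0.095% of the 14740 tested genes. At an unadjusted p under 0.05 there were 2, the mitochondrial superoxide dismutase SOD2 and catalase (CAT), both higher (5.56% of members, beside 2.77% of tested genes higher and 4.47% lower by that rule), and DESeq2 called none at its adjusted threshold and 1 without adjustment. The log2 fold changes of the members ran from -0.35 to 0.17 with a median of -0.032, beside a median of -0.00042 over all tested genes. For 35 of the 36 the 95% interval of the change lay within 1.4-fold of no change, as it did for 76.4% of tested genes. Fewer members were above 0 than below it, 7 of 36 against 49.8% of all tested genes, but with a correction for GC content 13 were above 0. Leaving out 1 library also moved this count, to 11 without TMAO 24H replicate 1 or CTRL replicate 2 and to 12 without TMAO 24H replicate 3 or CTRL replicate 3. The 3 treated libraries did not overlap the 3 controls for SOD2 and CAT, both higher, and for the aldo-keto reductase AKR1C1, which was lower, or 8.33% of members against 14.2% of tested genes.

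At 48H 2 members were higher and 2 were lower than in CTRL at an adjusted p under 0.05. SLC7A11, which imports cystine for glutathione synthesis, and the thioredoxin reductase TXNRD1 rose, and the aldose reductase AKR1B1 and the NADPH oxidase NOX4 fell. That is 11.1% of the 36 members, against 10.4% of all tested genes called in either direction (5.14% higher and 5.29% lower), so the share called was near the background of the same fit. That background rests on 1537 genes, which became 700 of 14875 without TMAO 48H replicate 2, 784 of 14925 without CTRL replicate 2 and 952 of 14919 without CTRL replicate 1. In these fits the same members stayed called, apart from TXNRD1 without TMAO 48H replicate 2. The background there thus fell more than the member calls, and the nearness of the shares is that of the full fit. Treated and control libraries were apart for 12 members (7 higher and 5 lower), or 33.3%, against 27.8% of tested genes. The median log2 fold change was -0.0012, with 18 of 36 above 0 against 51% of tested genes, and for 32 members the 95% interval lay within 1.4-fold of no change, as for 71.5% of tested genes. Under the study's further threshold of a 1.4-fold change, which 0.882% of tested genes passed upwards and 0.916% downwards, NOX4 was the only member called.

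Between 24H and 48H of TMAO, where control libraries enter only through the filter, the scaling factors and the estimate of the spread, 3 members were higher at 48H (SLC7A11, TXNRD1 and the quinone reductase NQO1) and 3 were lower (AKR1B1, CAT and NOX4). These are 16.7% of the 36, against 7.53% of tested genes (3.77% higher and 3.77% lower), and the difference between these shares was not tested. For 13 members, or 36.1%, the libraries of the 2 times did not overlap, against 27.6% of tested genes. Under the 1.4-fold threshold, passed by 0.862% of tested genes upwards and 0.848% downwards, NOX4 was again the only member. Because the 24H and 48H comparisons with CTRL share the same controls, their values are given side by side below and no likeness between them was computed.

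**Figure D1:**
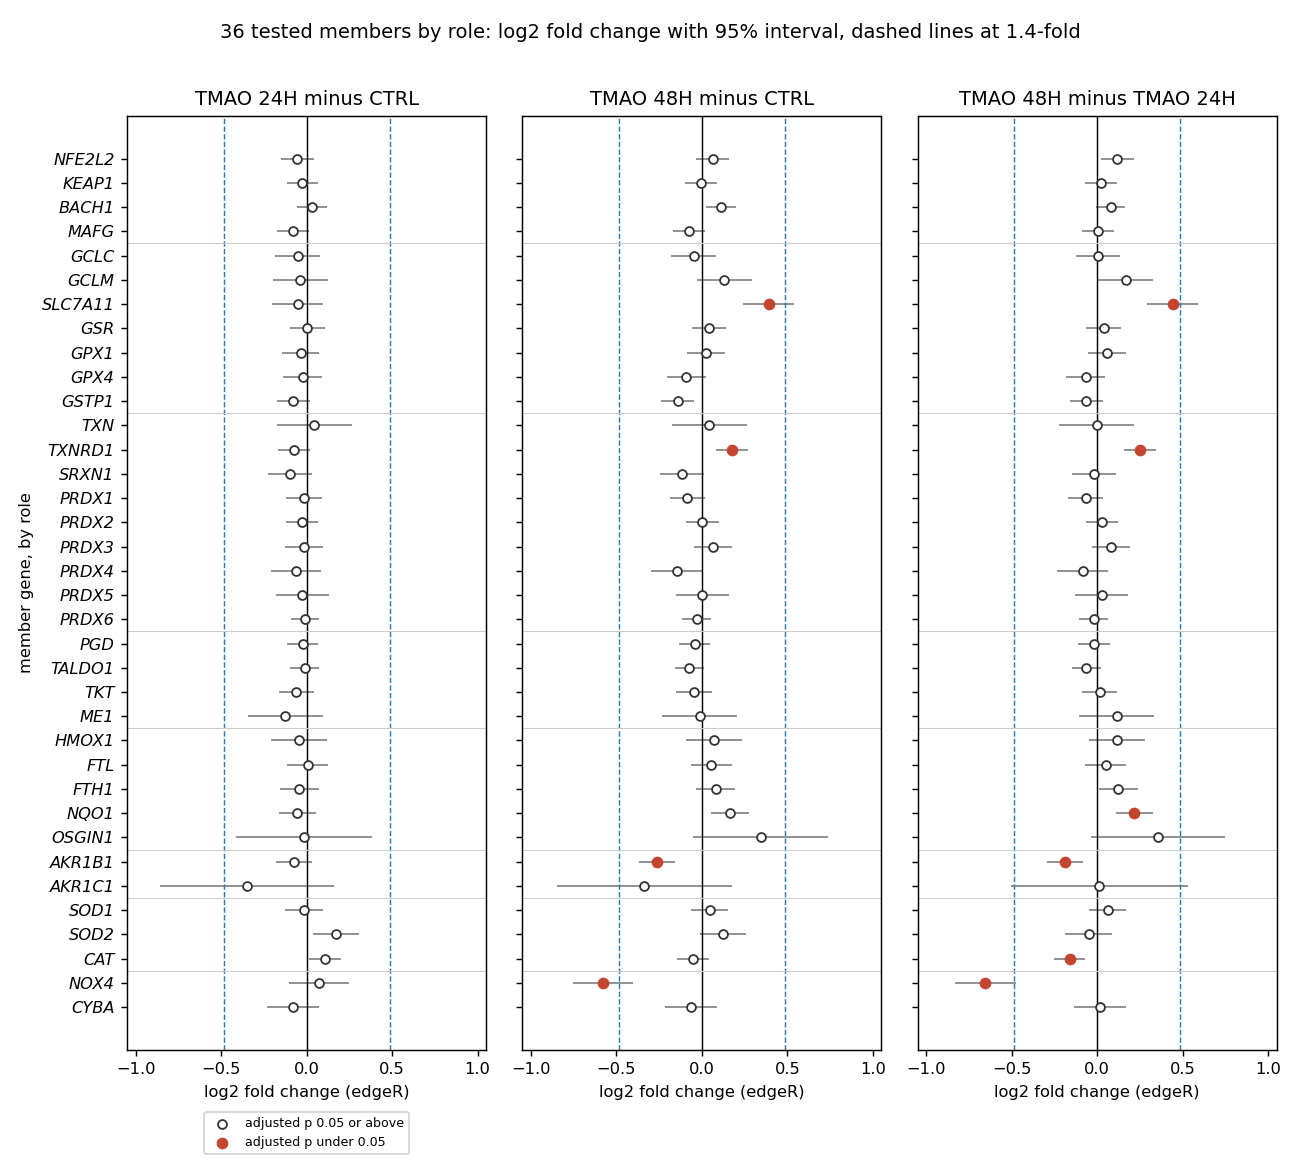
Log2 fold change (x axis) with its 95% interval for each of the 36 tested members (y axis, grouped by role) in TMAO 24H minus CTRL, TMAO 48H minus CTRL and TMAO 48H minus TMAO 24H, with filled points for an adjusted p under 0.05 and dashed lines at 1.4-fold. No point is filled at 24H, 4 are filled at 48H and 6 between the time-points, and NOX4 is the only point past a dashed line, at -0.58 and -0.65.

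None of the 4 regulators of the pathway passed the test in any comparison. NFE2L2 had normalised counts of 3552, 3553 and 3223 in CTRL, 3224, 3379.8 and 3341 at 24H and 3592, 3528 and 3671 at 48H. The 24H libraries lay inside the range of the controls, and 2 of the 3 libraries at 48H were above all of them. The 48H libraries were all above the 24H libraries (log2 difference 0.12, adjusted p = 0.141). By edgeR its log2 fold change was -0.055 (SE 0.045, adjusted p = 0.873) after 24H and 0.063 (SE 0.045, adjusted p = 0.411) after 48H. KEAP1, the protein that restrains NRF2, had 3484, 3599.9 and 3314 in CTRL, 3378, 3481 and 3354 at 24H and 3409, 3373 and 3590.1 at 48H. Its 3 groups overlapped throughout, with log2 fold changes of -0.026 (95% interval -0.118 to 0.0668) and -0.0035 (-0.0962 to 0.0891). Of the other 2 regulators, the competing repressor BACH1 was at 0.11 (adjusted p = 0.101) at 48H with all 3 treated libraries above the controls, and the small MAF partner MAFG was at -0.074 (adjusted p = 0.301). With a correction for GC content BACH1 at 48H was at 0.053 (adjusted p = 0.462 by edgeR).

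Among the 7 glutathione genes SLC7A11 was the only one to pass the test. SLC7A11 encodes the transport subunit of the cystine and glutamate exchanger, which brings in the amino acid that limits glutathione synthesis. Its normalised counts were 697, 708 and 783 in CTRL (729 ± 46.7, SD, n = 3), 711, 692 and 706 at 24H (703 ± 9.999) and 864, 1006 and 999 at 48H (956 ± 80.1). The 48H libraries were all above the other 6, while the 24H libraries lay close to the lower controls. SLC7A11 rose 1.31-fold at 48H against CTRL, a log2 fold change of 0.39 (SE 0.0693, 95% interval 0.241 to 0.54, adjusted p = 0.00376 by edgeR), and was at -0.052 (adjusted p = 0.941) at 24H. Against 24H the 48H level was 1.36-fold higher (log2 fold change 0.44, adjusted p = 0.00141). An antisense gene, SLC7A11-AS1, shares 865 exonic bases with it in GENCODE release 29 and the counting is not stated to use strand, but that gene held only 0 to 6 counts per library.

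None of the enzymes downstream of cystine import passed the test. The catalytic and modifier subunits of glutamate-cysteine ligase, GCLC and GCLM, were at log2 fold changes of -0.047 and 0.13 at 48H (adjusted p = 0.682 and 0.294), and in GCLM the 95% interval of -0.0305 to 0.293 reached from no change to a rise. Glutathione reductase GSR was at 0.042, and the glutathione peroxidases GPX1 and GPX4, the second of which reduces lipid peroxides, were at 0.022 and -0.090. The glutathione transferase GSTP1 had 5562, 5984 and 5575 normalised counts in CTRL, 5245, 5385 and 5582 at 24H and 5280.0, 4954 and 5285 at 48H. All 3 of its 48H libraries were below the controls, but its log2 fold change of -0.14 missed the threshold (adjusted p = 0.0593). It passed with DESeq2 (adjusted p = 0.0272) and with a filter of at least 10 counts in every library (adjusted p = 0.0487). With a correction for GC content its value was only -0.059 (adjusted p = 0.411 by edgeR). It passed in 0 of the 9 fits with a library left out.

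In the thioredoxin system of 9 members only the reductase passed the test against CTRL. TXNRD1 passes electrons from NADPH to thioredoxin and was among the most abundant members, with 14934, 15247 and 13964 normalised counts in CTRL (14715 ± 669), 14175, 13743 and 13985 at 24H (13968 ± 216) and 16769, 16749 and 16413 at 48H (16644 ± 199.8). The 48H libraries stood above all controls and all 24H libraries, and the 24H libraries lay at the lower end of the controls or just under it. TXNRD1 rose 1.13-fold at 48H against CTRL (log2 fold change 0.18, SE 0.0431, 95% interval 0.0847 to 0.271, adjusted p = 0.0200 by edgeR) and was at -0.075 (adjusted p = 0.780) at 24H. The rise against CTRL did not pass without TMAO 48H replicate 2 (adjusted p = 0.0737) or when only the 2 groups compared entered the fit (0.0732), nor with the replicate number as a block, alone (0.0521) or with a GC correction (0.117). From 24H to 48H it rose 1.19-fold (log2 fold change 0.25, adjusted p = 0.00269), a call that held whichever library was left out.

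The other 8 genes of this system were called at neither time. They are thioredoxin itself (TXN), sulfiredoxin (SRXN1), which repairs over-oxidised peroxiredoxins, and the peroxide-reducing peroxiredoxins PRDX1 to PRDX6, found in the cytosol, mitochondria and secretory pathway. Their log2 fold changes at 48H ran from -0.15 for PRDX4, the member of the secretory pathway, to 0.067 for the mitochondrial PRDX3. SRXN1, a gene often used as an NRF2 readout, had log2 fold changes of -0.098 after 24H and -0.11 after 48H (adjusted p = 0.795 and 0.251), with all 48H libraries below the controls. Thus in each of the glutathione and thioredoxin groups 1 gene rose and the rest did not pass the test.

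The 4 members that regenerate NADPH or feed the pathway that does were the pentose phosphate enzymes PGD, TALDO1 and TKT and the malic enzyme ME1. All 4 had log2 fold changes below 0 at both times, from -0.13 to -0.011 at 24H and from -0.074 to -0.013 at 48H, and none passed the test (lowest adjusted p = 0.866 and 0.259). With a correction for GC content, or without some single libraries, 1 of the 4 was above 0 at either time. Only TALDO1 at 48H had treated libraries that did not overlap the controls.

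The genes of heme breakdown, iron storage and quinone reduction include the classical readouts of NRF2. Heme oxygenase HMOX1, which opens the heme ring, had 501, 496 and 492 normalised counts in CTRL, 436, 477 and 528 at 24H and 537, 503 and 525 at 48H. The 48H libraries lay just above the tight controls, and the 24H libraries spread on both sides of them. Its log2 fold changes were -0.047 after 24H (95% interval -0.209 to 0.116) and 0.071 after 48H (-0.0915 to 0.234), with adjusted p of 0.955 and 0.605 by edgeR, so both intervals lay within 1.4-fold of no change. With a correction for GC content the value at 48H was 0.15, still without a call (adjusted p = 0.252).

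NQO1, which reduces quinones with NADPH or NADH and is a standard NRF2 target, had 1779, 1886 and 1781 normalised counts in CTRL (1815 ± 61.0), 1805, 1775 and 1664 at 24H (1748 ± 74.1) and 2160.4, 1954 and 1988 at 48H (2034 ± 111). Every 48H library was above every other library. The log2 fold change of 0.16 at 48H against CTRL (SE 0.0513, 95% interval 0.0538 to 0.275) missed the threshold (adjusted p = 0.0585), and at 24H it was -0.054 (adjusted p = 0.900). From 24H to 48H NQO1 rose 1.16-fold (log2 fold change 0.22, adjusted p = 0.0193 by edgeR). This last call was lost without TMAO 24H replicate 2 (adjusted p = 0.0532), TMAO 24H replicate 3 (0.0971) or TMAO 48H replicate 1 (0.0551). It was also lost with a GC correction and the replicate number as a block (0.0647). In GENCODE release 29 an antisense gene, AC092115.2, shares 17.7% of the exonic bases of NQO1, so reads from it could not be told apart without strand.

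The light and heavy ferritin chains FTL and FTH1 and the growth inhibitor OSGIN1 were not called in any comparison. FTL was at 0.055 and FTH1 at 0.080 at 48H. OSGIN1 was scarce, with 45.3 to 58.7 normalised counts in CTRL and 61.6 to 74.8 at 48H, and its log2 fold change of 0.34 carried a 95% interval of -0.0494 to 0.737. All 5 genes of this group were above 0 at 48H, under every alternative run. At 24H 1 of 5 was above 0, but 3 were without TMAO 24H replicate 1, 2 with GC correction or without CTRL replicate 2, and 0 without CTRL replicate 1 or TMAO 24H replicate 2.

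Of the aldo-keto reductases, which reduce reactive aldehydes and glucose with NADPH, AKR1B1 fell. Its normalised counts were 1616, 1724 and 1588 in CTRL (1643 ± 72.0), 1496, 1615 and 1565 at 24H (1558 ± 59.8) and 1412, 1344 and 1347 at 48H (1368 ± 38.3). The 24H libraries overlapped the lower controls, and the 48H libraries were below all others. At 48H the level was 0.833 of that in CTRL (log2 fold change -0.26, SE 0.0493, 95% interval -0.37 to -0.158, adjusted p = 0.00486 by edgeR), at 24H the log2 fold change was -0.076 (adjusted p = 0.816), and the fall from 24H to 48H was -0.19 (adjusted p = 0.0345). The fall against CTRL was called whichever library was left out. The fall from 24H to 48H was lost without either of TMAO 24H replicates 2 and 3 or TMAO 48H replicates 2 and 3 (adjusted p from 0.0804 to 0.138). It was also lost with no expression filter (0.0534) and with the replicate number as a block, alone (0.0747) or with a GC correction (0.0936).

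AKR1C1, widely used as an NRF2 target in epithelial cells, was scarce, with 44.3 to 59.7 normalised counts in CTRL, 35.4 to 43.9 at 24H and 32.2 to 57.0 at 48H. The log2 fold changes of -0.35 and -0.34 had 95% intervals that reached above 0 (adjusted p = 0.822 and 0.405). It is close in sequence to AKR1C2 and AKR1C3, which held 4 to 15 and 46 to 92 counts per library, so its own count is uncertain.

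**Figure D2:**
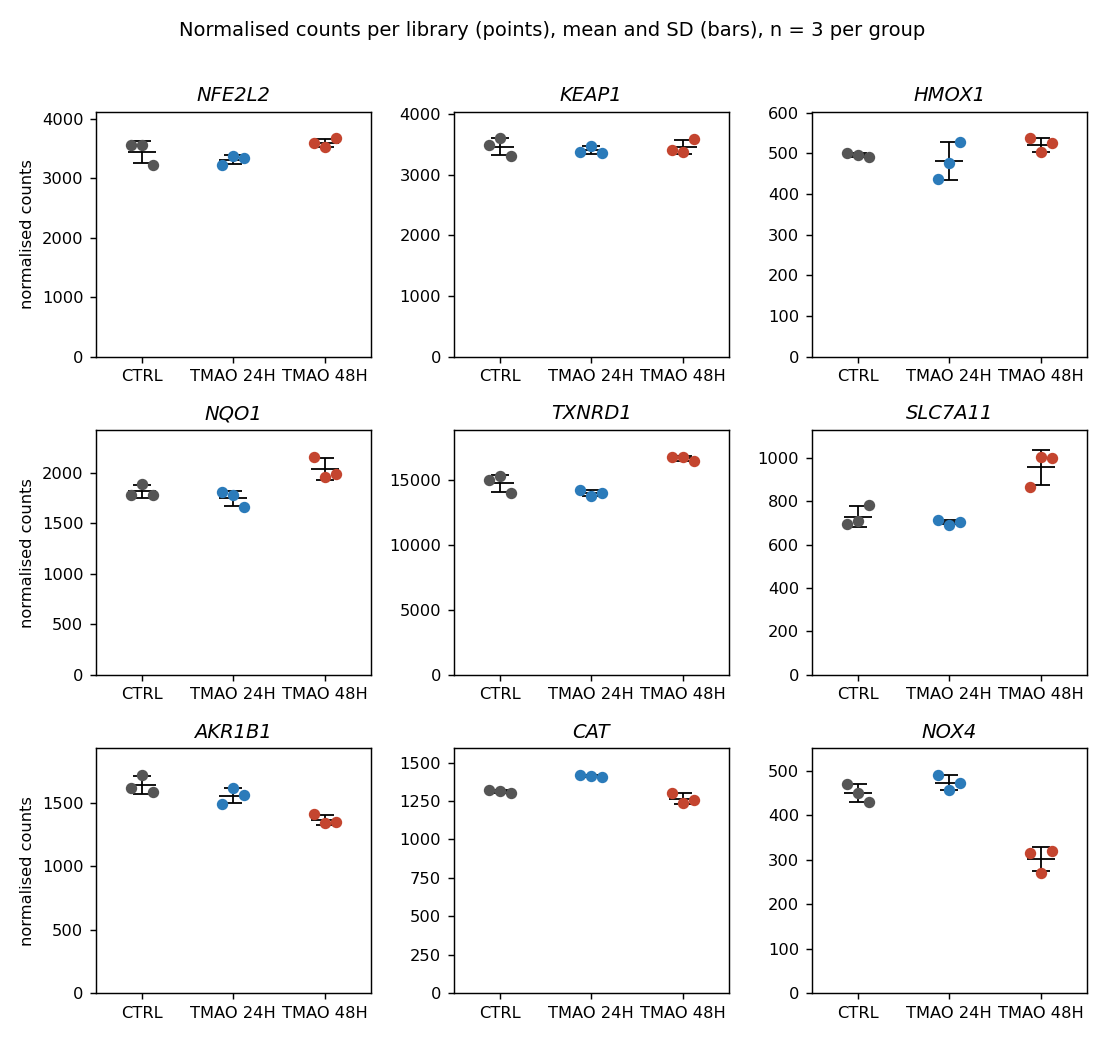
Normalised counts (y axis, from 0) in each library (points) of CTRL, TMAO 24H and TMAO 48H (x axis) for NFE2L2, KEAP1, HMOX1 and NQO1 and the members with an adjusted p under 0.05 in any comparison, with the mean and SD of the 3 libraries as bars. The 48H points of SLC7A11 (864 to 1006) and TXNRD1 (16413 to 16769) are above all others, those of AKR1B1 (1344 to 1412) and NOX4 (269 to 319.9) are below all others, and both treated groups of NFE2L2 and KEAP1 overlap CTRL.

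The superoxide dismutases turn superoxide into hydrogen peroxide, and catalase removes hydrogen peroxide in peroxisomes. CAT had 1320.0, 1317 and 1299 normalised counts in CTRL (1312 ± 11.6), 1422, 1412 and 1406 at 24H (1413 ± 8.09) and 1303, 1234 and 1255 at 48H (1264 ± 35.1). The 24H libraries were above all others, while the 48H libraries overlapped the controls. The log2 fold change was 0.11 (unadjusted p = 0.0272, adjusted p = 0.646 by edgeR) at 24H and -0.054 (adjusted p = 0.472) at 48H, and the level at 48H was 0.894 of that at 24H (log2 fold change -0.16, adjusted p = 0.0382). That last call was the weakest of the 6, since it held in only 2 of the 9 fits with a library left out and failed without TMAO 24H replicate 1, the library rich in ribosomal RNA (adjusted p = 0.129). The other 6 libraries whose omission ended it were TMAO 24H replicates 2 and 3, CTRL replicates 1 and 2, and TMAO 48H replicates 2 and 3, with adjusted p from 0.0537 to 0.145.

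SOD2, the mitochondrial dismutase, had 699, 704 and 628 normalised counts in CTRL, 789, 746 and 754 at 24H and 768, 735 and 707 at 48H. Both treated groups lay above the controls without overlap, with log2 fold changes of 0.17 (unadjusted p = 0.0169, adjusted p = 0.572) and 0.12 (adjusted p = 0.243), neither past the threshold. SOD1, the cytosolic dismutase, was at -0.016 and 0.046.

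NOX4 had the largest log2 fold change of any member at 48H. NOX4 is the NADPH oxidase that endothelial cells express most, and it releases hydrogen peroxide without needing cytosolic activators. Its normalised counts were 470.2, 450.0 and 430.2 in CTRL (450.1 ± 20.0), 492, 456 and 474 at 24H (474 ± 17.8) and 314, 269 and 319.9 at 48H (301 ± 27.6). The 24H libraries overlapped the controls and the 48H libraries were far below both groups. At 48H the level was 0.669 of that in CTRL (log2 fold change -0.58, SE 0.0822, 95% interval -0.757 to -0.403, adjusted p = 0.000932 by edgeR) and 0.635 of that at 24H (-0.65, adjusted p = 0.000239), and at 24H the log2 fold change against CTRL was 0.074 (adjusted p = 0.917). Both falls were called with each library left out in turn, with log2 fold changes against CTRL of -0.63 to -0.51.

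The membrane partner of NOX4, CYBA (p22phox), did not pass the test, with 1559, 1699 and 1886 normalised counts in CTRL, 1633, 1645 and 1587 at 24H and 1809, 1541 and 1578 at 48H. These groups overlapped, and the log2 fold change at 48H was -0.062 (95% interval -0.215 to 0.0913, adjusted p = 0.636). CYBB, the catalytic subunit of the phagocyte oxidase, was the 1 member left out by the filter on low counts. It had 0 counts in all 3 CTRL libraries, 2, 1 and 0 at 24H and 0, 1 and 0 at 48H, below the 3 counts that a count of 0 allows, so no fold change was computed.

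**Figure D3:**
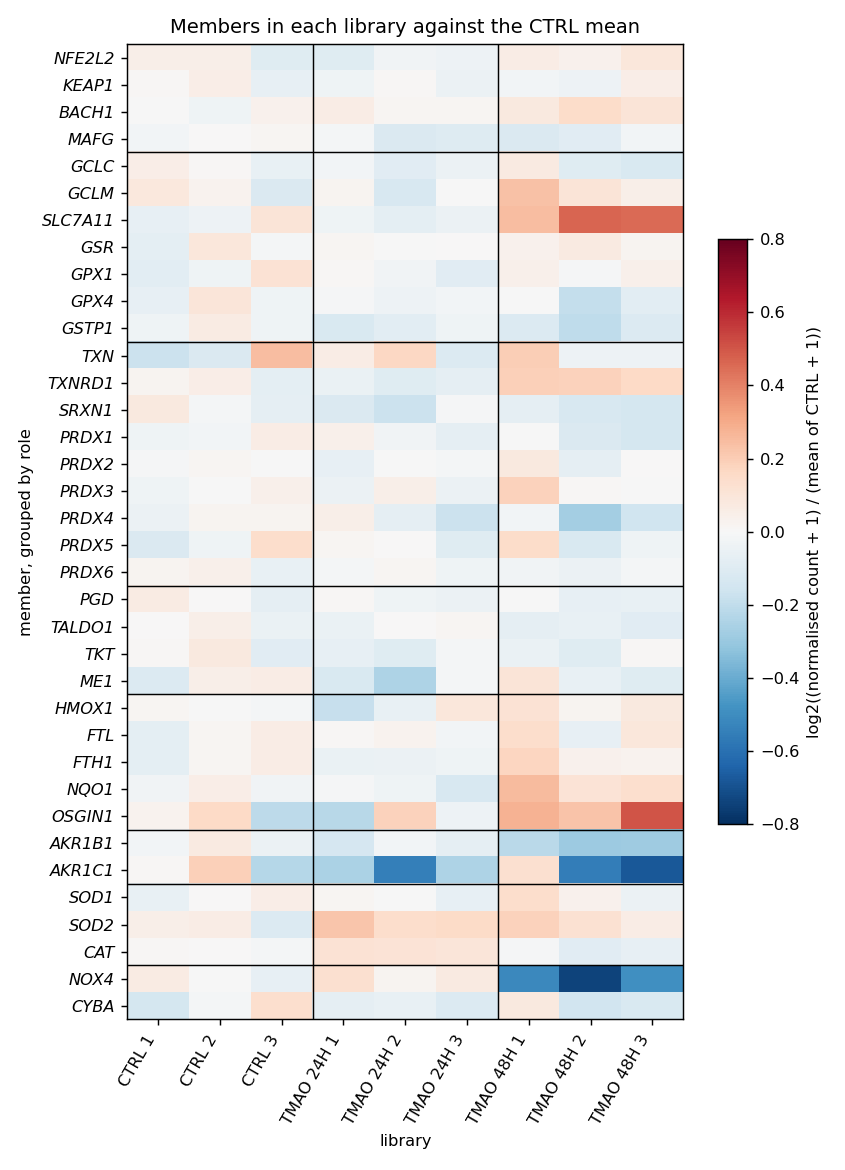
Each library (x axis) against the mean of CTRL for the 36 tested members (y axis, grouped by role), coloured by log2 of the normalised count plus 1 over the CTRL mean plus 1, red for higher and blue for lower. The 3 libraries at 48H are in shades of red for SLC7A11, OSGIN1, TXNRD1 and NQO1 and in shades of blue for AKR1B1 and NOX4. The 3 at 24H are pale red for SOD2 and CAT and in shades of blue for AKR1C1, and most other cells are near white.

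Levels differed widely between members. Per kilobase of transcript, FTH1 and FTL led in CTRL with 23649 and 19788 normalised counts per kilobase, followed by PRDX1 with 8357, GSTP1 with 6706 and TXNRD1 with 5019.6. At the other end of the 36 tested members were AKR1C1 with 7.79, OSGIN1 with 25.2, ME1 with 69.6 and SLC7A11 with 75.6, so the member with the largest rise at 48H was among the scarcest of them per length. NOX4 stood at 188 and CYBA at 2151. These levels use the transcript lengths of GENCODE release 29, which may not be the annotation behind the counts.

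Genes near the members in the same pathways were counted over 6 further lists. At 24H none of their 130 tested genes passed edgeR's test in either direction or that of DESeq2. At an unadjusted p under 0.05 edgeR gave 4 higher and 4 lower genes of the 130, beside 2.77% of all tested genes higher and 4.47% lower. At 48H 13 were higher and 8 lower than in CTRL, 16.2% of the 130 against 10.4% of all tested genes, and between the time-points 10 were higher and 7 lower at 48H, 13.1% against 7.53%. These differences in share were not tested. The list medians at 48H ran from -0.044 to 0.047, beside 0.0040 for all tested genes.

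Of 35 further NRF2 targets tested, 5 were higher and 3 lower at 48H, or 22.9%, against 10.4% of all tested genes. The largest rise was in ATF3, a transcription factor that many kinds of stress induce, with 209, 201 and 197 normalised counts in CTRL, 206, 211 and 164 at 24H and 331, 288 and 307 at 48H (log2 fold change at 48H 0.61, adjusted p = 0.00425). The largest fall was in ABCC3, an exporter of glutathione and glucuronide conjugates, from 938 to 1036 in CTRL to 645 to 799 at 48H (-0.43, adjusted p = 0.00675). In both genes the 48H libraries were apart from the other 6. Outside the naming rule and chosen after its values were seen, TXNIP, which binds and inhibits thioredoxin and responds to glucose, went from 2907 to 3285 in CTRL through 3412 to 3739.9 at 24H to 4246 to 4758 at 48H, with log2 fold changes of 0.20 (adjusted p = 0.421) and 0.55 (adjusted p = 7.51e-05). Both are counted among the 5 higher genes of this list, but neither ATF3 nor TXNIP is a gene read as a specific mark of NRF2. The list does not record whether NRF2 raises or lowers each gene, so a higher gene in it is not read as induction by NRF2.

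In the glutathione list 3 of 29 tested genes were higher and 1 lower at 48H (13.8%, beside the same 10.4%). The secreted peroxidase GPX3 was at 775 to 848 in CTRL and 1084 to 1195 after 48H, a log2 fold change of 0.52 (adjusted p = 0.000216). The transpeptidase GGT5, which cleaves extracellular glutathione, was at 373 to 410.2 in CTRL, 447 to 469.9 at 24H and 239 to 269 at 48H (-0.67, adjusted p = 0.000256). GGT5 also had the largest fall of the list from 24H to 48H (-0.88, adjusted p = 1.90e-05), and the largest rise there was in OPLAH, which returns oxoproline to glutamate (0.69, adjusted p = 0.0112). Of 20 thioredoxin and methionine sulfoxide genes 15% were called at 48H, where 2 were higher, led by SESN1 (0.28, adjusted p = 0.0194), a sestrin and p53 target, and 1 was lower, the disulfide isomerase TXNDC5 of the endoplasmic reticulum (-0.22, adjusted p = 0.0114).

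Of 20 genes that control NRF2, 2 were higher and 2 lower at 48H, or 20%, against 10.4% of all tested genes. CDKN1A encodes the cell cycle inhibitor p21, a p53 target that can also protect NRF2 from KEAP1, and it had 6300.3 to 6616 normalised counts in CTRL, 6548 to 6695 at 24H and 9644 to 9786 at 48H (log2 fold change 0.58, adjusted p = 2.51e-06). Its 48H libraries lay well above the rest. The largest fall was in the small MAF gene MAFK (-0.21, adjusted p = 0.0477). Of 18 iron and heme genes 2, or 11.1%, were called at 48H, where IREB2, which controls ferritin translation, was higher (0.19, adjusted p = 0.0156) and the iron reductase STEAP3 was lower (-0.32, adjusted p = 0.0323). None of the 8 tested genes of NADPH oxidases outside the members was called at 48H against CTRL by edgeR, beside 10.4% of all tested genes. DESeq2 called 1 gene of this list, beside 1716 of the 21150 genes that it tested.

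**Figure D4:**
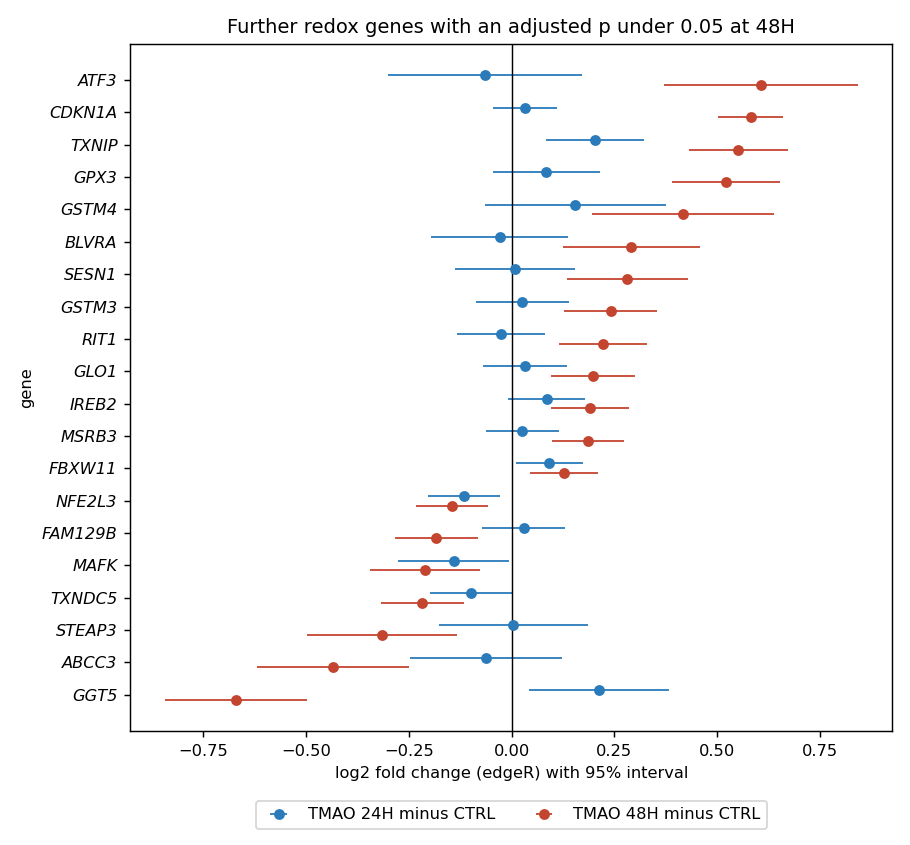
Log2 fold change with 95% interval (x axis) against CTRL at 24H (blue) and 48H (red) for 20 of the 21 genes of the further redox lists with an adjusted p under 0.05 at 48H (y axis, from the largest rise to the largest fall). The red points run from 0.61 for ATF3 to -0.67 for GGT5, and no blue point passed the adjusted threshold.

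Promoter windows were read for the core of the antioxidant response element, to which NRF2 and small MAF proteins bind. RefSeq sequences of build GRCh38.p14, from 250 bases before to 50 bases after each start, were given for 30 of the 37 members in 44 windows, and for the members FTH1, GSR, HMOX1, PRDX1, PRDX6, SLC7A11 and SOD1 no window was used here. The letters TGACNNNGC occurred on either strand in windows of 6 members (GCLM, GSTP1, KEAP1, ME1, PGD and TXNRD1), 20.0% of the 30, beside 16.1% of all 27305 genes in the table. The same letters followed by an A occurred in 4 (GCLM, GSTP1, KEAP1 and TXNRD1), or 13.3%, beside 3.94% of genes. The matches in GSTP1 and ME1 also hold TGANTCA, the letters of an AP-1 site. Stretches around 2 of the 3 matches in TXNRD1, the called member that has them, and around the longer form in the other 3 members are shown 5′ to 3′ on the strand of the gene with the 9 core letters in capitals.
TXNRD1, chr12:104215655-104215713, plus strand: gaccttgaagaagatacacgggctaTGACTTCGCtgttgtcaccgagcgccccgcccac
TXNRD1 at another start, chr12:104286905-104286963, plus strand: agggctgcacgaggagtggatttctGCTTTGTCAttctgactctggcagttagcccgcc
GCLM, chr1:93909431-93909489, minus strand: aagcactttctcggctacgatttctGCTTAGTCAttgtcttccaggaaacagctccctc
GSTP1, chr11:67583721-67583779, plus strand: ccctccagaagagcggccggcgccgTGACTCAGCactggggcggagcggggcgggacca
KEAP1, chr19:10502772-10502827, minus strand: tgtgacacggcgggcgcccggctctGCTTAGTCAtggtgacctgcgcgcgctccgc

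The third match in TXNRD1 ended at the start itself (-8 to 0) and is not printed. KEAP1 holds another match, TGACACGGC at -54 to -46, which lies in lower case in its stretch. In the second TXNRD1 stretch and in GCLM and KEAP1 the core reads on the opposite strand. With the start of transcription as 0, the core spans -99 to -91 and -102 to -94 in the TXNRD1 windows, -34 to -26 in GCLM, -66 to -58 in GSTP1 and -31 to -23 in KEAP1. The genes with these letters had values on both sides of 0, since at 48H TXNRD1 rose by 0.18, GCLM was at 0.13, KEAP1 at -0.0035 and GSTP1 at -0.14. NQO1, AKR1B1, CAT and NOX4, which were called in at least 1 comparison, hold no TGACNNNGC in their windows, which says only that the letters are not within these bases.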

How the data were processed

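RNA from HMEC-1 was sequenced in 9 libraries, 3 per group, with groups and replicate numbers taken from the labels. The authors ran version 3.6 of the nf-core RNAseq pipeline (Trim Galore is listed in the submitters' processing notes) and deposited expected counts per gene, which are estimated counts without normalisation. The quantifier, genome build and annotation are not given in the sources used here.

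The expected counts were rounded to whole numbers and fitted in R 4.3.3 with edgeR 4.0.16: filterByExpr (14740 genes kept), TMM normalisation, and the quasi-likelihood functions glmQLFit (legacy = FALSE) and glmQLFTest, with all 9 libraries in 1 model and group as the only term. Genes with a Benjamini-Hochberg adjusted p under 0.05 over all 14740 were called. Normalised counts are counts over the effective library size, times the mean effective library size (30416600). Levels per kilobase used GENCODE release 29 transcript lengths. The study compared groups with DESeq2 and a further 1.4-fold threshold, and both were run as alternatives (DESeq2 1.42.0). On simulated data for 48H against CTRL with 14584 genes, 193 of 200 changed genes were recovered with 8 false calls. Of the 100 changed 2-fold, 99 were recovered. The simulation gave every gene the same spread. All its planted changes were larger than those of SLC7A11, TXNRD1, AKR1B1 and, only just, NOX4 at 48H against CTRL. Recovery of changes as small as those of SLC7A11, TXNRD1 and AKR1B1 was therefore not measured. Permuting 3 against 3 libraries exactly gives no p below 0.1 for 1 gene, so p-values come from the fit across all genes.

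The members and the further lists were chosen with earlier results of these data known. Values per library are given for NFE2L2, KEAP1, HMOX1, NQO1 and every member called in any comparison, and other members with wide or near-threshold values were added after seeing them. From each further list the largest rise and the largest fall among called genes with a mean normalised count of at least 50 were named. Promoter windows came from RefSeq (GRCh38.p14). Same-numbered replicates did not deviate together, so the number was not used as a block. Some genes of the further lists are counted but not reported here by name.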

Additional observations from a re-analysis of the deposited data

Results flagged for a closer look

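For 6 members the level at 48H of TMAO differed from that at 24H by a direct test of the difference (edgeR, adjusted over all tested genes), so their change against the shared controls differed between the time-points. SLC7A11, the cystine transporter, was higher by 0.44 on the log2 scale at 48H than at 24H, the thioredoxin reductase TXNRD1 by 0.25 and the quinone reductase NQO1 by 0.22. The log2 difference was -0.19 for the aldose reductase AKR1B1, -0.16 for catalase (CAT) and -0.65 for the oxidase NOX4. In all 6 the 3 libraries at 48H lay on 1 side of the 3 at 24H, as in 27.6% of tested genes. The 6 were chosen by a test on these same libraries, so their lack of overlap adds no support. The calls of SLC7A11, TXNRD1 and NOX4 held with each of the 9 libraries left out in turn, that of NQO1 in 6 of 9, that of AKR1B1 in 5 of 9 and that of CAT in 2 of 9. No group of 3 libraries was tested for single outlying values.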

How the results depend on the processing

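No call of a member changed sign in the comparison where it was called, under any of the alternatives run. Among the 36 members, DESeq2, RLE factors, the older quasi-likelihood fit, removal of ribosomal RNA genes and GC correction left every count of called members within 1.5 times its value. At 48H against CTRL 2 members were higher and 2 lower. Only 1 was higher with only the 2 groups compared, and under the 1.4-fold threshold 0 were higher and 1 was lower. A test against a 1.4-fold change called 0 higher and 0 lower. From 24H to 48H 3 were higher and 3 lower, becoming 0 and 1 under the 1.4-fold threshold, 0 and 0 in the test against a 1.4-fold change, and 1 lower with no expression filter. Leaving out each library in turn gave 1 to 2 higher and 2 to 2 lower at 48H, 2 to 3 higher and 1 to 3 lower between the time-points, and 0 to 0 in both directions at 24H. The replicate numbers pair no samples by any source used here: deviations of same-numbered libraries correlated at -0.12 to 0.0908, those of other pairs at -0.0996 to 0.159. With the replicate block 1 member was higher at 48H (TXNRD1 missed at adjusted p = 0.0521). Between the time-points 1 was lower with that block (AKR1B1 at 0.0747 and CAT at 0.0856 missed). With GC correction with replicate block 1 was higher at 48H (TXNRD1 missed at 0.117). Under that last setting NQO1 (0.0647) and AKR1B1 (0.0936) missed between the time-points. In the further lists the replicate block left 5 lower at 48H, and 6 higher and 4 lower between the time-points, and the 1.4-fold threshold left 4 higher and 1 lower at 48H, and 3 higher and 2 lower between the time-points. Over all tested genes the calls at 48H numbered 1537, with 981 for only the 2 groups compared, 948 with the block, 265 under the 1.4-fold threshold and 23 in the test against it, and at 24H 14, with 55 by DESeq2, 22 with only the 2 groups compared, 1 with the block, 4 with GC correction and the block, 7 under the 1.4-fold threshold and 0 in the test against it. Leaving out 1 library gave 0 (TMAO 24H replicate 2) to 24 (TMAO 48H replicate 1) calls at 24H, 700 to 1595 at 48H, and from 24H to 48H, where 1110 were called, 558 to 1281. The last fell to 653, 692 and 558 without TMAO 24H replicates 1, 2 and 3 and to 586 without TMAO 48H replicate 2. At 24H the count was also 8 without TMAO 24H replicate 1, 6 without CTRL replicate 1, 3 without CTRL replicate 2 and 9 without TMAO 48H replicate 2. The cause of these differences was not tested, apart from the stricter thresholds, which by construction call fewer genes. Depth limits OSGIN1 and AKR1C1, with about 50 normalised counts, to wide intervals, and CYBB to no test.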
